A study of Homo sapiens with 6 samples.

Results

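The TGF-beta and BMP pathway genes described here are 55 listed ligands, receptors, binding proteins, SMADs, intracellular regulators and ID or matrix targets, and all 55 were found by symbol among the 22604 genes of the count file. RNA-seq was performed in SKNMC, a Ewing sarcoma cell line that carries the EWS-FLI1 fusion. Cells were infected with lentivirus for V5-tagged NFIB lacking its C-terminal intrinsically disordered region (NFIB-ΔIDR), for V5-tagged full-length NFIB (NFIB-WT) or for an empty expression vector (EV), with 2 libraries per group. NFIB is a transcription factor of the nuclear factor I family, and the comparisons ask which transcripts differ with added NFIB and which differ with its disordered region removed. Infected cells of all 3 groups were selected with puromycin per the study's methods, the untagged NFIB gene was still present in every group, and all groups come from the same line, so they model added NFIB in a single tumor background.

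TGF-beta, activin and BMP ligands bind pairs of type I and type II receptor kinases at the cell surface. TGF-beta and activin receptors phosphorylate SMAD2 and SMAD3, BMP receptors phosphorylate SMAD1, SMAD5 and SMAD9, and both kinds of SMAD enter the nucleus with SMAD4, while SMAD6 and SMAD7 and the SMURF ubiquitin ligases damp the signal. The ID genes are classic BMP targets, and the pathway is known in mesenchymal cells for its control of matrix production and of bone and cartilage fate.

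NFIB RNA followed the labels. It was at 2227 and 2332 CPM (counts scaled to a common library total, with TMM factors) in NFIB-ΔIDR, at 969 and 1051 CPM in NFIB-WT and at 176 and 145 CPM in EV. The level in NFIB-ΔIDR was 2.26-fold that in NFIB-WT (adjusted p = 0.000191 in edgeR), so the missing region and the higher level of the construct's RNA cannot be told apart in any comparison of the constructs. Library totals ranged from 6664231 to 8465572 counts, and the 55 genes took 0.271% to 0.336% of them. The NFIB-WT pair was the most uneven, with an SD of the log2 difference of 0.32 over the tested pathway genes, against 0.22 in the NFIB-ΔIDR pair and 0.22 in the EV pair. The 9 Ewing sarcoma markers measured were all above 20 CPM. PTPRC, a leukocyte marker, was at 251 to 312 CPM in the 6 libraries, while CD3E and CD14 were below 1 CPM, and summed endothelial, epithelial and melanocyte markers were at most 9.20 CPM. Summed fibroblast markers were at 331 to 339 CPM in NFIB-ΔIDR, 447 to 479.5 CPM in NFIB-WT and 356 to 370 CPM in EV, and their part in the results below was not tested. The 7 markers in this sum did not move together. DCN, COL1A2, COL3A1 and THY1 were lower in both NFIB-ΔIDR libraries than in NFIB-WT, while COL1A1, PDGFRA and PDGFRB were higher. In such bulk samples fewer cells of a type and less RNA per cell cannot be told apart.

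Of the 55 genes, 44 passed the filter on low counts and were tested among 13501 genes. The other 11 (BMP4, BMP5, GDF5, INHBA, INHBB, ACVRL1, FST, NOG, GREM1, CHRD and TGFBI) had at most 10 counts in any library, and no direction is given for them. A gene was called at an adjusted p under 0.05 in edgeR's quasi-likelihood test, with Benjamini-Hochberg adjustment over all 13501 genes. Between the constructs 9 pathway genes were called. BMP2 and SMURF1 were higher in NFIB-ΔIDR than in NFIB-WT, and BMP7, LTBP3, TGFBR1, FSTL1, SMAD3, ID2 and ID4 were lower. In hg19, LTBP3 lies at chr11:65306030-65326401, TGFBR1 at chr9:101866320-101916474, SMAD3 at chr15:67356101-67487511, SMURF1 at chr7:98625063-98741731, ID2 at chr2:8818975-8824591 and ID4 at chr6:19837601-19842428. The 7 lower genes are 15.9% of the 44, beside 5.52% of all genes tested, and the 2 higher genes are 4.55%, beside 5.19%. These shares are a description only, since the 55 genes were chosen with earlier results of these data known. At an unadjusted p under 0.05, 14 pathway genes were lower and 6 higher, beside 13.9% and 13.6% of all genes. DESeq2 called 7 of the 9, leaving out SMURF1 and LTBP3, beside 5.41% of all genes. The median log2 fold change of the 44 was -0.13, against 0.00 over all genes, and it was -0.25 without NFIB-ΔIDR replicate 1, -0.09 without NFIB-ΔIDR replicate 2, -0.05 without NFIB-WT replicate 1 and -0.23 without NFIB-WT replicate 2.

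Promoter sequence is shown for the 4 called genes that had a single window in the RefSeq promoter table (GRCh38.p14), to show what lies upstream of genes that differed between the constructs. Each run is the 250 bases before the start, read 5′ to 3′ on the gene's strand, and each also had a single exact match in hg19. The FSTL1 window lies at chr3:120169840-120170089 on the minus strand of hg19, that of ID2 at chr2:8821936-8822185 on the plus strand, that of ID4 at chr6:19837351-19837600 on the plus strand and that of SMURF1 at chr7:98741732-98741981 on the minus strand. The ID2 window lies within the longer gene span of the GENCODE annotation, and that of FSTL1 overlaps its end. Capitals mark the NFI motif TTGGC or its complement GCCAA.
FSTL1: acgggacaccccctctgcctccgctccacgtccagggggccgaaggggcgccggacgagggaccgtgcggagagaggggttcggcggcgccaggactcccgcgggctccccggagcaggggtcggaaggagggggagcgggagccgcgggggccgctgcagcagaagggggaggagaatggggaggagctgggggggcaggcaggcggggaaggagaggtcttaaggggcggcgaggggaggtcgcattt
ID2: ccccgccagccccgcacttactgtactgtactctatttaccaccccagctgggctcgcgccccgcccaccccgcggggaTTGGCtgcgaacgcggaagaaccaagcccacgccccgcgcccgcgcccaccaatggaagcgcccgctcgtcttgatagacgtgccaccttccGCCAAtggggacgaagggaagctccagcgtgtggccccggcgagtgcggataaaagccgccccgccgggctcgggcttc
ID4: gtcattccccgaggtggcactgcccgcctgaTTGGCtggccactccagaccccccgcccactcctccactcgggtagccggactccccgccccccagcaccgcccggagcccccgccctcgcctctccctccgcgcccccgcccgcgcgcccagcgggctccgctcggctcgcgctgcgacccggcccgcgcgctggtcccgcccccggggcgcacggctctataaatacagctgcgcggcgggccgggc
SMURF1: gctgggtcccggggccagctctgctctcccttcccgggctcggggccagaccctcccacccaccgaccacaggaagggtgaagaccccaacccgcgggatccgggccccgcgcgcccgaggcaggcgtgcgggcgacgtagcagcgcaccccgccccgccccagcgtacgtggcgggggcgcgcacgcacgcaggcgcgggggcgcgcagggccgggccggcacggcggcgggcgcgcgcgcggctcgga
The marked motif was present at 2 places in the ID2 window and 1 place in the ID4 window, and it was not in the FSTL1 or SMURF1 window. On both strands it was found in 40.8% of the 35116 windows of the same length. The palindromic NFI full site, which overlaps this motif, was in 0.0285% of them and in none of the 4. The BMP SMAD element GGCGCC was at 2 places in the FSTL1 window only, beside 16.4% of all windows, and the SMAD palindrome GTCTAGAC was in none of the 4, beside 0.182%. GC content was 69.2% in the ID2 window, 74.4% in that of FSTL1, 78.8% in that of ID4 and 81.2% in that of SMURF1.

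**Figure D1:**
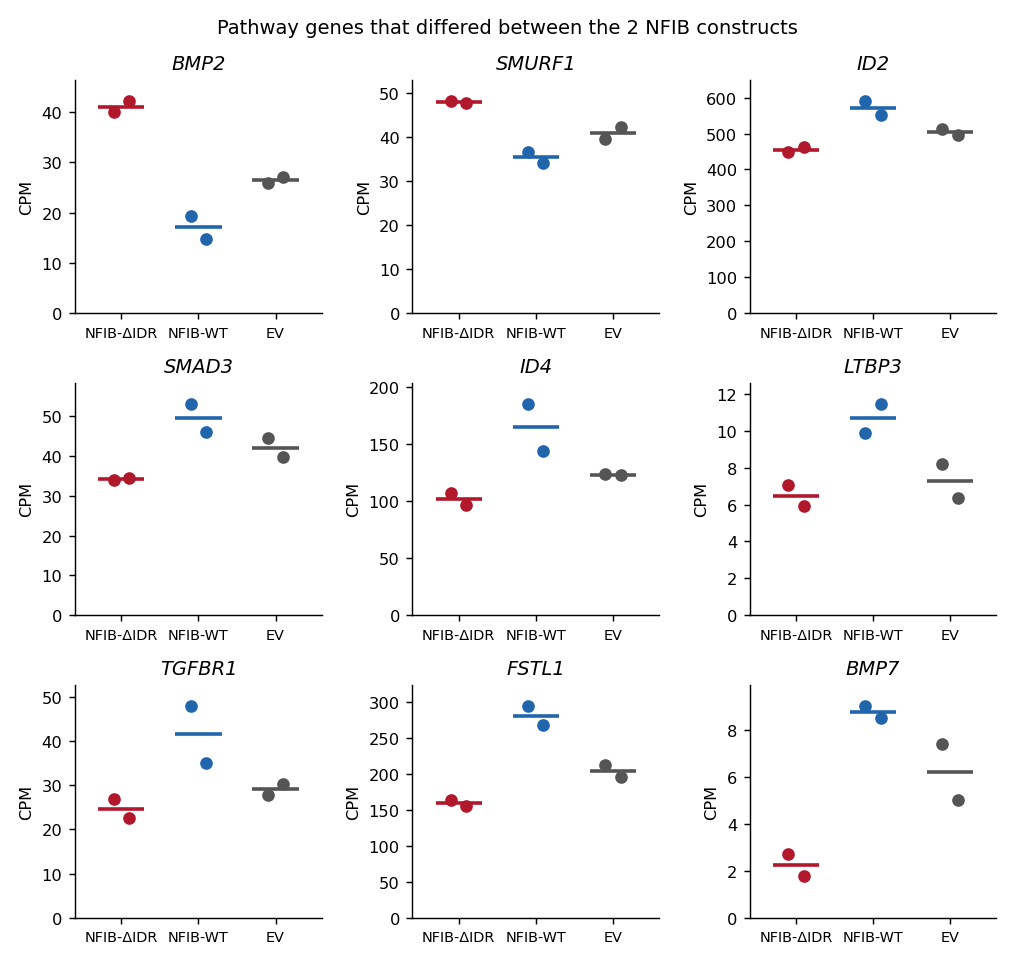
CPM (y axes, from 0) of the 9 pathway genes that differed between the constructs, in NFIB-ΔIDR, NFIB-WT and EV; points are the 2 libraries of a group and lines their mean. BMP2 is at 40.0 and 42.2 CPM in NFIB-ΔIDR, and the EV libraries lie between those of the constructs in every panel but LTBP3. The panels were picked by a difference between the constructs, a choice that itself favors this order. The share of all genes with this order was not counted, so it is not read as a trait of the pathway.

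Among the BMP ligands, BMP2 and BMP7 moved in opposite directions. BMP2, a ligand known for inducing bone and cartilage, was at 40.0 and 42.2 CPM in NFIB-ΔIDR, 19.4 and 14.8 CPM in NFIB-WT and 25.9 and 27.0 CPM in EV. The 3 groups did not overlap. NFIB-ΔIDR was 2.42-fold higher than NFIB-WT (log2 scale 1.28, SE 0.14, adjusted p = 0.000813 in edgeR), and BMP2 kept this call in all 15 alternatives run. BMP7, a ligand required for kidney development in the mouse, was at 2.71 and 1.77 CPM in NFIB-ΔIDR, 9.0 and 8.50 CPM in NFIB-WT and 7.37 and 5.02 CPM in EV. Here too EV lay between the constructs, with no overlap. BMP7 fell by 1.94 on the log2 scale in NFIB-ΔIDR against NFIB-WT (SE 0.29, adjusted p = 0.00332 in edgeR), a level 3.85-fold higher in NFIB-WT, and lost its call without NFIB-ΔIDR replicate 2 (adjusted p = 0.0643). BMP2 (chr20:6748333-6760893) and BMP7 (chr20:55743809-55841697, both in hg19) lie on the same chromosome.

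The other tested ligands of this class did not pass. BMP6, a ligand known for its control of hepcidin in the liver, was at 28.1 and 33.1 CPM in NFIB-ΔIDR, 23.6 and 21.8 CPM in NFIB-WT and 29.5 and 28.6 CPM in EV (log2 fold change between constructs 0.43, adjusted p = 0.0529 in edgeR). The NFIB-WT libraries lay below the other 4. GDF6, a skeletal patterning ligand and the highest of the class in CPM, was at 54.8 and 48.3 CPM in NFIB-ΔIDR, 52.8 and 46.1 CPM in NFIB-WT and 48.2 and 42.5 CPM in EV, and its NFIB-WT libraries overlapped both other groups. GDF11, a relative of myostatin, had a log2 fold change of -0.08 between the constructs (95% interval -0.41 to 0.24).

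Of the 7 TGF-beta ligands and latent TGF-beta binding proteins, 1 was called. LTBP3, which ties latent TGF-beta to the matrix, was at 7.04 and 5.91 CPM in NFIB-ΔIDR, 9.90 and 11.5 CPM in NFIB-WT and 8.19 and 6.33 CPM in EV. NFIB-ΔIDR and EV overlapped, and both lay below NFIB-WT. The log2 fold change of NFIB-ΔIDR against NFIB-WT was -0.72 (SE 0.20, adjusted p = 0.0460 in edgeR), and 9 of the 15 alternatives ended this call, DESeq2 (adjusted p = 0.245), upper quartile scaling and library totals among them.

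The 3 TGF-beta ligands had fold changes above 0 between the constructs, and none passed. TGFB1, the most widely expressed isoform in the body, was at 12.7 and 14.0 CPM in NFIB-ΔIDR, 7.50 and 9.79 CPM in NFIB-WT and 8.46 and 10.8 CPM in EV (log2 fold change between constructs 0.62, SE 0.19, adjusted p = 0.0641 in edgeR). TGFB2, an isoform with roles in heart and skeletal development, was at 3.79 and 4.43 CPM in NFIB-ΔIDR, 1.65 and 2.45 CPM in NFIB-WT and 1.77 and 3.11 CPM in EV (0.98, SE 0.35, adjusted p = 0.0977). For both genes the NFIB-ΔIDR libraries lay above the other 4, and NFIB-WT overlapped EV. TGFB3, an isoform needed for palate closure in the mouse and the highest of the 7, was at 75.1 and 75.4 CPM in NFIB-ΔIDR, 65.7 and 72.5 CPM in NFIB-WT and 67.2 and 68.5 CPM in EV, with a log2 fold change of 0.12 between the constructs (95% interval -0.09 to 0.33). LTBP1, LTBP2 and LTBP4 lay between -0.21 and 0.07 on that scale.

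**Figure D2:**
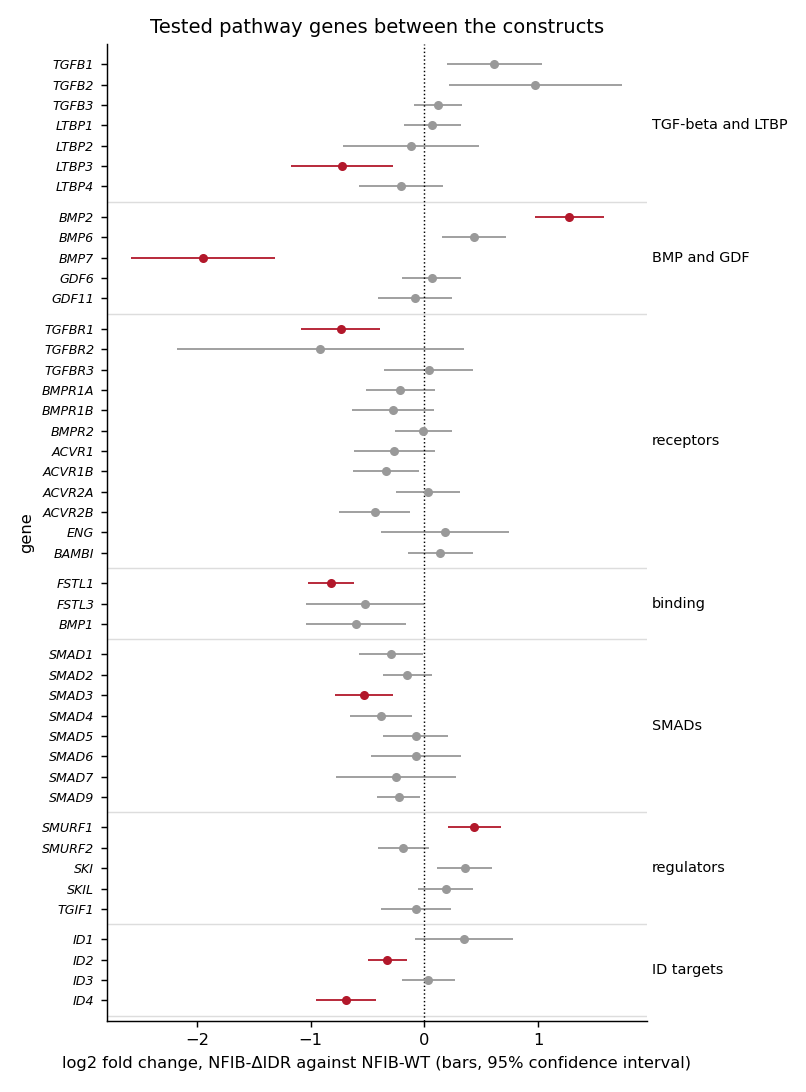
Log2 fold change of NFIB-ΔIDR against NFIB-WT (x axis) with its 95% confidence interval for the 44 tested pathway genes (rows), grouped by role; red marks the 9 with an adjusted p under 0.05. BMP7 at -1.94 and BMP2 at 1.28 are the ends of the range, and the 8 SMADs all lie below 0, of which 6 do without NFIB-WT replicate 1.

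TGFBR1 was the called receptor among 12 tested, of which 8 had fold changes below 0 (median log2 fold change -0.24). This median was -0.11 without NFIB-WT replicate 1 and -0.15 without NFIB-ΔIDR replicate 2. TGFBR1, the type I receptor for TGF-beta, was at 26.8 and 22.6 CPM in NFIB-ΔIDR, 47.8 and 35.0 CPM in NFIB-WT and 27.8 and 30.4 CPM in EV. Both NFIB-WT libraries lay above the other 4, and the pair was wide. On the log2 scale NFIB-ΔIDR against NFIB-WT was at -0.74 (SE 0.16, adjusted p = 0.0170 in edgeR), and leaving out either NFIB-ΔIDR library ended the call (highest adjusted p 0.192). TGFBR2, the type II receptor that TGF-beta binds directly, was near the limit of detection, with means of 0.972 CPM in NFIB-ΔIDR, 1.94 CPM in NFIB-WT and 0.896 CPM in EV, and its interval for the constructs ran from -2.18 to 0.34.

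The activin and BMP receptors did not pass. ACVR2B, a type II receptor for activins, was at 41.7 and 36.8 CPM in NFIB-ΔIDR, 59.5 and 47.0 CPM in NFIB-WT and 57.9 and 48.8 CPM in EV (log2 fold change between constructs -0.44, SE 0.14, adjusted p = 0.0746 in edgeR). ACVR1B, a type I receptor for activins, was at 33.5 and 29.1 CPM in NFIB-ΔIDR, 43.8 and 35.5 CPM in NFIB-WT and 36.3 and 37.0 CPM in EV (-0.33, adjusted p = 0.131). For both, the NFIB-ΔIDR libraries lay below the other 4. BMPR2, the type II receptor for BMPs and the highest of the receptors in CPM, was at 208 and 198 CPM in NFIB-ΔIDR, 225 and 183 CPM in NFIB-WT and 207 and 177 CPM in EV. Its log2 fold change between the constructs was -0.01 (95% interval -0.26 to 0.24). The type I receptors BMPR1A, BMPR1B and ACVR1 had log2 fold changes of -0.21, -0.28 and -0.26, and the type II receptor ACVR2A had 0.03. The coreceptors TGFBR3 and ENG and the pseudoreceptor BAMBI had 0.04, 0.18 and 0.14.

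The 3 tested extracellular proteins all had lower values in NFIB-ΔIDR than in NFIB-WT, and 1 was called. FSTL1, a secreted glycoprotein that binds BMP ligands, was at 163 and 155 CPM in NFIB-ΔIDR, 295 and 268 CPM in NFIB-WT and 213 and 196 CPM in EV. The 3 groups did not overlap, with EV between the constructs. The log2 fold change of NFIB-ΔIDR against NFIB-WT was -0.82 (SE 0.09, adjusted p = 0.000908 in edgeR), a level 1.77-fold higher in NFIB-WT. FSTL1, like BMP2, kept its call in all 15 alternatives, with log2 fold changes from -0.89 to -0.76. FSTL1 lies at chr3:120111140-120169863 of hg19 on the minus strand.

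FSTL3 and BMP1 did not pass. FSTL3, which binds and blocks activins, was at 4.74 and 4.43 CPM in NFIB-ΔIDR, 7.05 and 6.18 CPM in NFIB-WT and 4.78 and 3.46 CPM in EV (log2 fold change between constructs -0.52, adjusted p = 0.179 in edgeR). BMP1, which despite its name is a protease that cleaves procollagen and chordin, was at 7.31 and 6.64 CPM in NFIB-ΔIDR, 12.2 and 9.27 CPM in NFIB-WT and 6.69 and 7.53 CPM in EV (-0.61, adjusted p = 0.0783). The NFIB-WT libraries of both genes lay above the other 4, and NFIB-ΔIDR overlapped EV. The BMP and activin antagonists FST, NOG, GREM1 and CHRD are among the 11 untested genes.

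SMAD3 was the called member of the 8 SMADs, all of which had fold changes below 0 between the constructs (median log2 fold change -0.24). Without NFIB-WT replicate 1, 6 of the 8 lay below 0, with a median of -0.08, and without NFIB-WT replicate 2 the median was -0.38. SMAD3, a transducer of TGF-beta and activin signals, was at 33.8 and 34.5 CPM in NFIB-ΔIDR, 53.1 and 46.0 CPM in NFIB-WT and 44.4 and 39.8 CPM in EV. Again no groups overlapped, and EV lay in between. The log2 fold change was -0.53 (SE 0.12, adjusted p = 0.0182 in edgeR), and leaving out either NFIB-ΔIDR library ended the call (highest adjusted p 0.164).

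SMAD4, the partner shared by both branches, was at 131 and 131 CPM in NFIB-ΔIDR, 195 and 147 CPM in NFIB-WT and 154 and 146 CPM in EV (log2 fold change between constructs -0.38, adjusted p = 0.0747 in edgeR). SMAD9, a BMP transducer, was at 176 and 177 CPM in NFIB-ΔIDR, 214 and 199 CPM in NFIB-WT and 186 and 178 CPM in EV (-0.23, adjusted p = 0.115). SMAD2, the other TGF-beta transducer and the highest SMAD in CPM, was at 204 and 201 CPM in NFIB-ΔIDR, 246 and 204 CPM in NFIB-WT and 242 and 236 CPM in EV (-0.15, adjusted p = 0.347). For these 3 genes NFIB-ΔIDR had the lowest values, and NFIB-WT replicate 1 had the highest. The BMP transducers SMAD1 and SMAD5 had log2 fold changes of -0.30 and -0.08, and the inhibitory SMAD6 and SMAD7 had -0.08 and -0.25, none past the threshold.

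SMURF1 was the called gene of the 5 intracellular regulators. SMURF1, a ubiquitin ligase that targets SMADs and receptors for degradation, was at 48.2 and 47.7 CPM in NFIB-ΔIDR, 36.6 and 34.1 CPM in NFIB-WT and 39.5 and 42.2 CPM in EV. The 3 groups did not overlap, with EV in between. The log2 fold change between the constructs was 0.44 (SE 0.11, adjusted p = 0.0254 in edgeR), and 6 of the 15 alternatives ended the call, with an adjusted p of 0.135 in DESeq2. SMURF1 shares exon sequence with TRRAP on the other strand, whose log2 fold change was 0.17 (adjusted p = 0.222 in edgeR), and no source used here states whether the counting kept strands apart. SMURF2, its paralog, had -0.19 (95% interval -0.41 to 0.04).

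SKI, a corepressor that binds SMADs, was at 44.2 and 41.0 CPM in NFIB-ΔIDR, 32.2 and 34.5 CPM in NFIB-WT and 34.4 and 34.9 CPM in EV (log2 fold change between constructs 0.35, adjusted p = 0.0619 in edgeR). SKIL, a related corepressor and the highest of the 5, was at 229 and 227 CPM in NFIB-ΔIDR, 221 and 179 CPM in NFIB-WT and 220.3 and 196 CPM in EV (0.19, adjusted p = 0.296). The NFIB-ΔIDR libraries of both genes lay above the other 4, and neither gene passed. TGIF1, another SMAD corepressor, had -0.07.

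Of the 4 tested ID genes, ID2 and ID4 were lower in NFIB-ΔIDR than in NFIB-WT. ID proteins dimerize with basic helix-loop-helix factors and keep them from DNA. ID4 was at 107 and 96.5 CPM in NFIB-ΔIDR, 185 and 144 CPM in NFIB-WT and 124 and 122 CPM in EV. The 3 groups did not overlap, with EV in between. The log2 fold change of NFIB-ΔIDR against NFIB-WT was -0.69 (SE 0.12, adjusted p = 0.00679 in edgeR), and leaving out either NFIB-ΔIDR library ended the call (highest adjusted p 0.125).

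ID2 was at 447 and 462 CPM in NFIB-ΔIDR, 590.3 and 552 CPM in NFIB-WT and 512 and 496 CPM in EV. These groups also did not overlap, and the change was small, at -0.33 on the log2 scale (SE 0.08, adjusted p = 0.0240 in edgeR) that lost its call in 5 of 15 alternatives. ID2-AS1, which shares exon sequence with ID2 on the other strand, had 0.00 (SE 0.25). ID1 did not follow them. It was at 20.6 and 13.4 CPM in NFIB-ΔIDR, 13.2 and 13.7 CPM in NFIB-WT and 10.8 and 9.44 CPM in EV, and its log2 fold change between the constructs was 0.35 (adjusted p = 0.280 in edgeR). Its 2 NFIB-ΔIDR libraries lay far apart, one above the NFIB-WT pair and one within it. ID3 had 0.03 (95% interval -0.20 to 0.27).

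**Figure D3:**
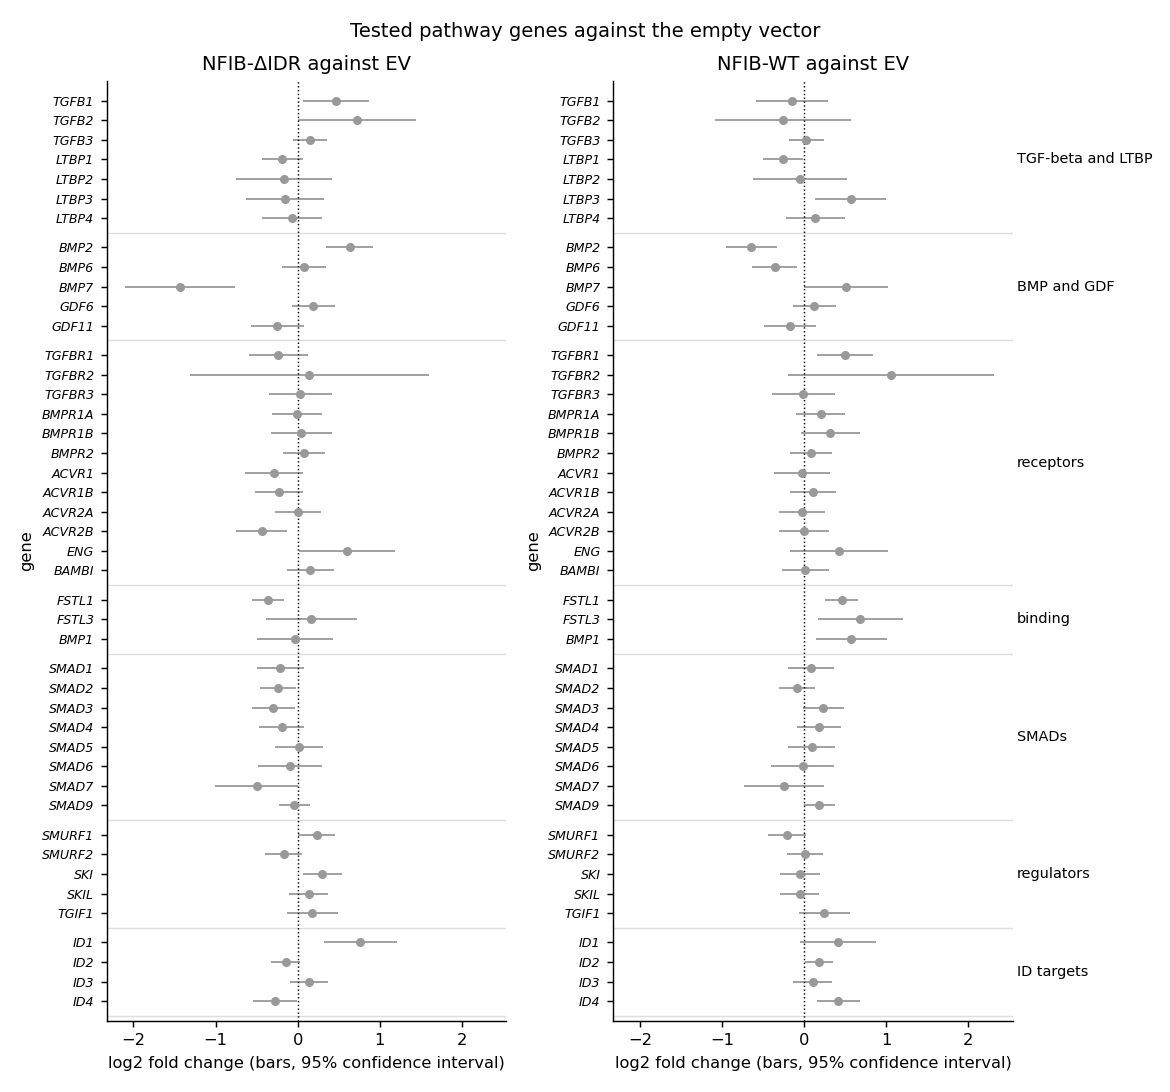
Log2 fold change against EV (x axes) with its 95% confidence interval for the 44 tested pathway genes (rows), NFIB-ΔIDR on the left and NFIB-WT on the right. No gene has an adjusted p under 0.05 in either panel, and BMP7 at -1.44 in NFIB-ΔIDR and TGFBR2 at 1.06 in NFIB-WT lie farthest from 0.

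Against EV, no pathway gene was called with NFIB-ΔIDR, beside 0.652% of all genes in edgeR, and DESeq2 also called 0 of 40 with an adjusted p, beside 0.89% of all genes. At an unadjusted p under 0.05, 7 were higher and 6 lower, beside 7.77% and 7.42% of all genes. The log2 fold change of BMP2 was 0.63 (SE 0.13, adjusted p = 0.0569 in edgeR), BMP7 -1.44 (SE 0.30, adjusted p = 0.0649) and FSTL1 -0.36 (SE 0.09, adjusted p = 0.103). ID1 had 0.76 (SE 0.20, adjusted p = 0.116) and ACVR2B -0.44 (SE 0.14, adjusted p = 0.177). The other 8 with an unadjusted p under 0.05 were TGFB1, TGFB2, ENG, SMURF1 and SKI above 0 and SMAD2, SMAD3 and ID4 below 0, with adjusted p of at least 0.219. The count of 0 did not hold when NFIB-WT libraries were left out of the shared fit. In a fit of NFIB-ΔIDR and EV alone, 12 of 43 were called, beside 14.2% of all genes, 4 higher (BMP2, ENG, SKI and ID1) and 8 lower (BMP7, ACVR2B, FSTL1, SMAD2, SMAD3, SMAD4, ID2 and ID4), and the same 12 were called without NFIB-WT replicate 1 (beside 13.2% of all genes) and without NFIB-WT replicate 2 (beside 13.3%).

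No pathway gene was called with NFIB-WT against EV in edgeR either, beside 0.615% of all genes. FSTL1 came nearest, at 0.46 on the log2 scale (SE 0.09, adjusted p = 0.0527 in edgeR), and it was the gene DESeq2 called (adjusted p = 0.0278; 1 of 43, beside 0.555% of all genes). At an unadjusted p under 0.05, 7 were higher and 3 lower, beside 6.93% and 6.42%. BMP2 had -0.64 (SE 0.14, adjusted p = 0.0776 in edgeR), ID4 0.42 (SE 0.12, adjusted p = 0.175) and TGFBR1 0.50 (SE 0.15, adjusted p = 0.207). LTBP3, FSTL3, BMP1 and ID2 above 0 and LTBP1 and BMP6 below 0 had adjusted p of at least 0.245. Without NFIB-WT replicate 2, 14 of 45 were called, beside 21.9% of all genes, and without NFIB-WT replicate 1, 3 of 45 were (BMP2, ENG and FSTL1), beside 3.68%. Both comparisons share the EV libraries, so the values of a gene against EV are not independent between them.

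**Figure D4:**
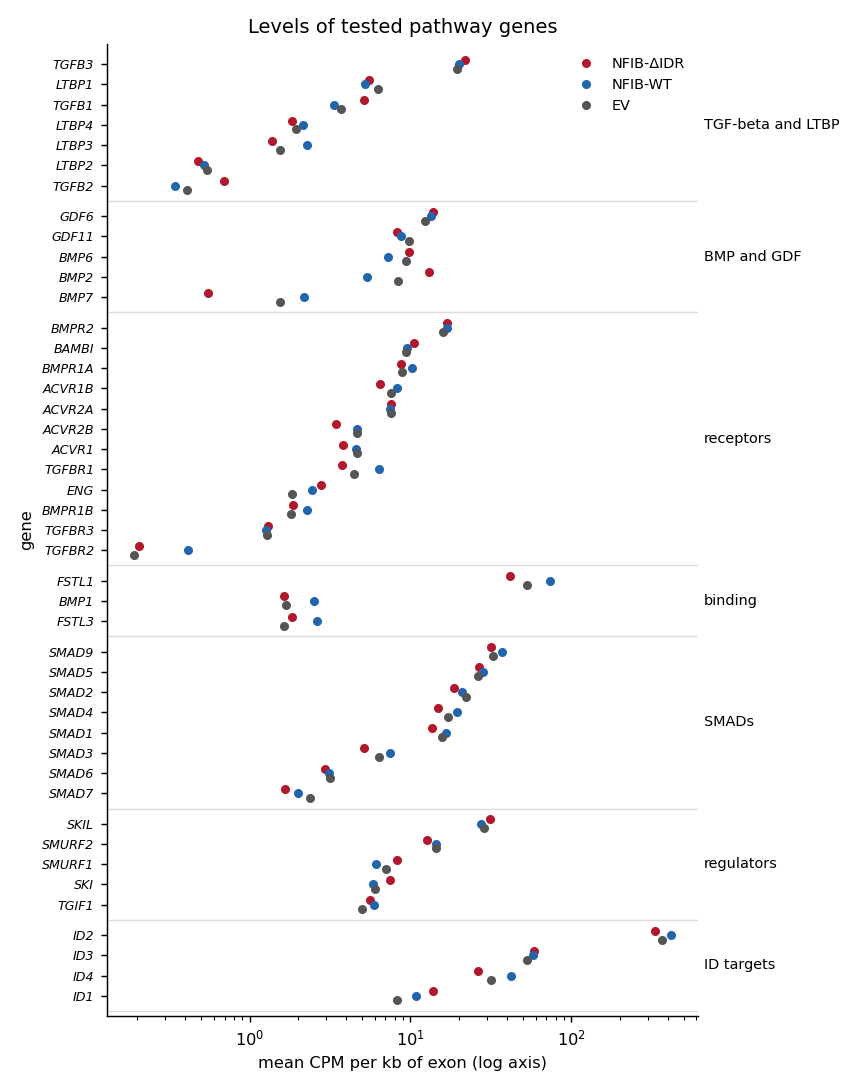
Mean CPM per kb of exon (x axis, log scale) of the 44 tested pathway genes (rows, ordered within a role), in NFIB-ΔIDR (red), NFIB-WT (blue) and EV (gray). ID2, at 333, 419 and 369 CPM per kb in these groups, is the highest, and TGFBR2 is the lowest in EV.

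Levels between genes are compared as mean CPM per kb of exon. ID2 had 333 CPM per kb in NFIB-ΔIDR, 419 CPM per kb in NFIB-WT and 369 CPM per kb in EV, above every other pathway gene in each group. In EV, ID3 (53.5 ± 3.63 CPM per kb, SD, n = 2) and FSTL1 (53.3 ± 3.06) came next and did not differ beyond their spread. Among the ligands TGFB3 was the highest (19.6 CPM per kb in EV), followed by GDF6 (12.3), and among the receptors BMPR2 was (15.9). In EV, the TGF-beta receptors TGFBR1 and TGFBR2 had 4.46 and 0.191 CPM per kb. The type I receptors BMPR1A, BMPR1B and ACVR1 had 8.83, 1.81 and 4.67 CPM per kb. Among the SMADs in EV, the BMP transducers SMAD9, SMAD5 and SMAD1 had 32.5, 26.4 and 15.7 CPM per kb. The TGF-beta transducers SMAD2 and SMAD3 had 22.2 and 6.35 CPM per kb.

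A list of 101 other genes of the pathway held 95 genes in the file, of which 65 were tested. It was chosen with earlier results of these data known, so its shares of called genes are a description only. Between the constructs 7 of the 65 were called higher in NFIB-ΔIDR, beside 5.19% of all genes, and 9 lower, beside 5.52%. With NFIB-ΔIDR against EV 2 were higher and 1 lower, beside 0.652% of all genes in either direction, and with NFIB-WT against EV 3 were higher, beside 0.615%. These genes include matrix proteins and direct targets that are not among the 55.

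**Figure D5:**
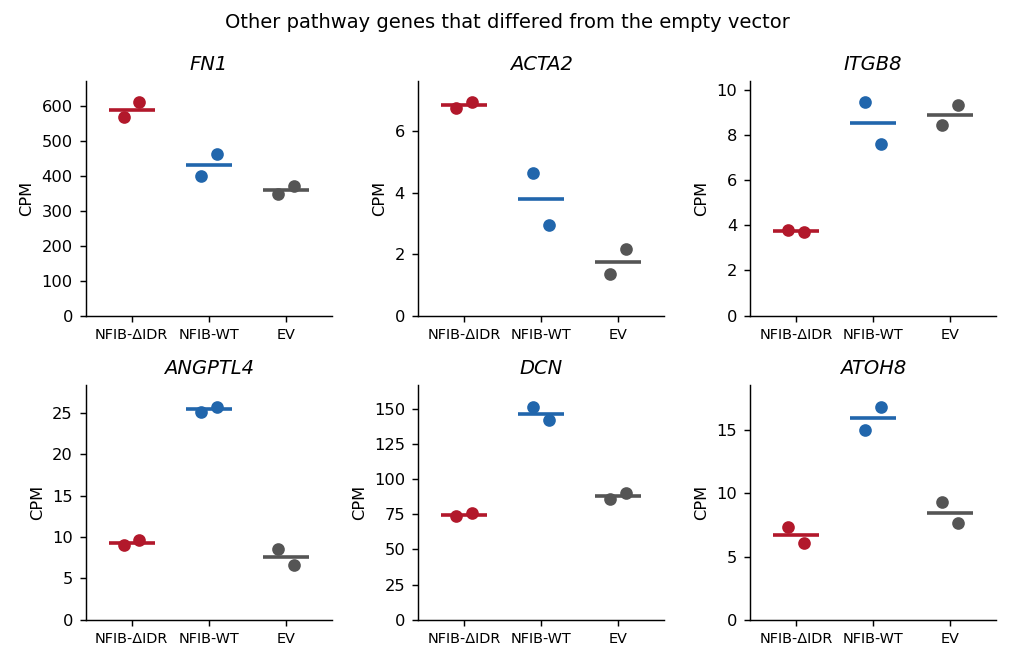
CPM (y axes, from 0) of the 6 other pathway genes called against EV, in NFIB-ΔIDR, NFIB-WT and EV; points are the 2 libraries of a group and lines their mean. FN1 and ACTA2 are highest in NFIB-ΔIDR, ITGB8 is lowest there, and ANGPTL4, DCN and ATOH8 are highest in NFIB-WT.

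FN1, ACTA2 and ITGB8 were the called genes with NFIB-ΔIDR against EV. FN1, which encodes fibronectin and is a TGF-beta target, was at 568 and 609 CPM in NFIB-ΔIDR, 400.2 and 463 CPM in NFIB-WT and 347 and 371 CPM in EV (log2 fold change against EV 0.71, SE 0.09, adjusted p = 0.0105 in edgeR). ACTA2, the smooth muscle actin of myofibroblasts, was at 6.76 and 6.94 CPM in NFIB-ΔIDR, 4.65 and 2.96 CPM in NFIB-WT and 1.36 and 2.15 CPM in EV (1.93, SE 0.31, adjusted p = 0.0223). The 3 groups did not overlap in either gene, with NFIB-WT in between. ITGB8, an integrin chain that helps release TGF-beta from its latent form, was at 3.79 and 3.69 CPM in NFIB-ΔIDR, 9.45 and 7.60 CPM in NFIB-WT and 8.46 and 9.32 CPM in EV. It was lower in NFIB-ΔIDR than in EV (log2 fold change -1.25, SE 0.22, adjusted p = 0.0318 in edgeR) and than in NFIB-WT (-1.18, SE 0.22, adjusted p = 0.00925). FN1 was higher in NFIB-ΔIDR than in NFIB-WT (0.45, SE 0.09, adjusted p = 0.0135). All 3 calls against EV were lost when a NFIB-ΔIDR or EV library was left out, while DESeq2 called FN1, gave ITGB8 an adjusted p of 0.0860 and gave ACTA2 none.

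ANGPTL4, DCN and ATOH8 rose with NFIB-WT against EV. ANGPTL4, a secreted inhibitor of lipoprotein lipase that TGF-beta induces, was at 9.06 and 9.60 CPM in NFIB-ΔIDR, 25.1 and 25.8 CPM in NFIB-WT and 8.60 and 6.57 CPM in EV (NFIB-WT against EV 1.75 on the log2 scale, SE 0.16, adjusted p = 0.000796 in edgeR). DCN, a matrix proteoglycan that binds TGF-beta, was at 73.7 and 75.9 CPM in NFIB-ΔIDR, 152 and 142 CPM in NFIB-WT and 86.0 and 90.1 CPM in EV (0.74, SE 0.09, adjusted p = 0.00608). ATOH8, a helix-loop-helix factor induced by BMP signals, was at 7.31 and 6.05 CPM in NFIB-ΔIDR, 15 and 16.9 CPM in NFIB-WT and 9.28 and 7.65 CPM in EV (0.92, SE 0.17, adjusted p = 0.0419). In each of the 3 genes both NFIB-WT libraries lay above the other 4. DESeq2 did not call ATOH8 (adjusted p = 0.206), and leaving out an EV or a NFIB-ΔIDR library gave 1 call in place of 3. All were lower in NFIB-ΔIDR than in NFIB-WT, with log2 fold changes of -1.45 for ANGPTL4 (SE 0.15, adjusted p = 0.000740), -0.97 for DCN (SE 0.09, adjusted p = 0.000433) and -1.25 for ATOH8 (SE 0.18, adjusted p = 0.00312), all in edgeR.

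SOSTDC1, a secreted BMP and Wnt antagonist, was at 4.74 and 3.25 CPM in NFIB-ΔIDR, 1.20 and 1.29 CPM in NFIB-WT and 3.69 and 3.70 CPM in EV, and was higher in NFIB-ΔIDR than in NFIB-WT (1.67 on the log2 scale, SE 0.35, adjusted p = 0.0141 in edgeR and 0.0749 in DESeq2). The other called genes between the constructs were COL1A1, FBN1, EP300, CREBBP and GATA2, higher in NFIB-ΔIDR, and SNAI2, COL1A2, FBN2, ITGAV and KLF10, lower. In edgeR the collagen genes COL1A1 and COL1A2 and the fibrillin genes FBN1 and FBN2 had opposite directions within each pair. Of the 10 genes just named DESeq2 did not call COL1A1 (adjusted p = 0.101), FBN1 (0.291), FBN2 (0.0661), GATA2 (0.166), KLF10 (0.125) or SNAI2 (0.0728). EP300 and CREBBP encode paired coactivators that SMADs recruit, and their log2 fold changes were 0.54 (SE 0.12, adjusted p = 0.0221) and 0.54 (SE 0.14, adjusted p = 0.0321) in edgeR. Of the fibroblast markers summed above, DCN, COL1A1 and COL1A2 are also among these called genes.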

How the data were processed

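RNA-seq of 6 SKNMC libraries was analysed, 2 in each of 3 groups, prepared with the CORALL total RNA kit. The authors aligned reads to hg19 with STAR 2.4.0h and made the deposited counts, whole fragments per RefSeq gene and library without normalization, with featureCounts; the submitters' processing notes also name CASAVA 2.19. No source used here states the strand setting or whether molecular identifiers were collapsed, so reads may not be independent molecules. The exon lengths used for values per kb are another deposited column.

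Differences were tested with edgeR 4.0.16 in R 4.3.3, by its quasi-likelihood F test. Low genes were dropped by filterByExpr, at a minimum count of 10 and a minimum total of 15, TMM factors were applied, and 1 model with 3 group means was fitted to the 6 libraries. P values were adjusted by Benjamini-Hochberg over the genes tested. CPM are TMM-scaled, and 1 CPM was 6.67 counts in the smallest library. The study describes biological duplicates, and each p value measures differences against the spread inside the 3 pairs. The study names DESeq2 with a fold of 1.5; DESeq2 1.42.0 was run as an alternative, beside other scalings, filters and thresholds, fits of 2 groups, a replicate block, robust estimation and leaving out each library. The script was tested on simulated counts.

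The members, the list of other pathway genes and the markers were chosen with earlier results of these data known. Values in every library are given for called members, for the 20 with the smallest unadjusted p under 0.05 and for the highest member of each role in CPM; of other pathway genes, called ones are named, at most 6 per contrast with values. Gene positions come from GENCODE on hg19, and promoter windows (48 of 55 members matched by symbol) from RefSeq on GRCh38.p14. Plots used matplotlib 3.10.9 (Python 3.11.15).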

Additional observations from a re-analysis of the deposited data

How the results depend on the processing

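With 2 libraries per group the shared spread decides most calls. The call of a pathway gene in the text kept its side of the threshold in 540 of 645 values (43 pairs of a gene and a contrast), became weaker in 27 and stronger in 78, and reversed in 0. Most of the 43 pairs were not called in the main fit, so for them keeping their side meant staying uncalled. The 27 weaker values all fell on the 9 calls between the constructs, of which only BMP2 and FSTL1 had none. For pathway genes, other pathway genes and all genes in turn, NFIB-ΔIDR against EV gave 0, 3 and 88 calls. There, a fold of 1.5 with unadjusted p under 0.05 gave 5, 8 and 644 in edgeR and 3, 6 and 301 in DESeq2; no filter gave 5, 9 and 550; the 2 groups alone gave 12, 14 and 1883. An adjusted p under 0.1 gave 2 pathway genes and 276 genes, the replicate block 3 and 241, and DESeq2 1 other gene. Leaving out a library gave 0 to 12, 0 to 14 and 4 to 1853, with member medians from -0.0977 to -0.0015.

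NFIB-WT against EV gave 0, 3 and 83. The fold rule gave 2, 8 and 524 in edgeR and 1, 8 and 251 in DESeq2, an adjusted p under 0.1 gave 2, 6 and 229, and no filter gave 4, 10 and 541. DESeq2 called 1 pathway gene. The replicate block gave 1 pathway gene and 188 genes, and the 2 groups alone 1 other gene and 13 genes. Leaving out a library gave 0 to 14, 1 to 18 and 9 to 3051, with medians from 0.0148 to 0.1858.

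NFIB-ΔIDR against NFIB-WT gave 9, 16 and 1446. An adjusted p under 0.1 gave 16 pathway genes and 2354 genes, no filter 15 and 2280, and the replicate block 15 pathway genes. DESeq2 gave 9 other genes and 725 genes (935 by the fold rule), and the 2 groups alone 10 and 680. Leaving out a library gave 2 to 23, 2 to 29 and 109 to 4405, with medians from -0.2468 to -0.0476; the 23 came without NFIB-WT replicate 2 and the 2 without NFIB-ΔIDR replicate 2. The cause of these differences was not tested. No source used here states whether equal replicate numbers mark a shared batch, and this was not tested. Over genes, deviations of same-numbered libraries correlated at 0.02 between NFIB-ΔIDR and EV. The correlation was 0.15 between NFIB-WT and EV and 0.05 between the constructs. A fit without a library in an arm takes the lone library to vary like the other groups. At these depths, genes near 1 CPM such as TGFBR2 have intervals too wide to show a difference below several-fold.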
